A study of Mus musculus with 84 samples.

Results

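Liver gene expression after parathion (PT) at 40 ppm in the diet was compared with liver gene expression after methidathion (MT) at 50 ppm. The mice were chosen by their treatment labels: 7 mice at PT 40 ppm and 7 at MT 50 ppm, 14 of the 84 mice in the series, and no control mouse entered the comparison. All 14 were male B6C3F1 mice, 8 weeks of age when exposure began, that ate AIN-93G diet with the pesticide for 7 days. The diets correspond to estimated intakes of 6 mg/kg/day of PT and 7.5 mg/kg/day of MT, so the doses of the OPPs (organophosphate pesticides) differed and every value below compares these doses as well as these compounds. By experimental block, each group had 2 mice from block 1, 3 from block 3 and 2 from block 4. RNA of all 14 was isolated by the same service laboratory (EA). Cages, several mice to each, were assigned to treatments and the labels do not give the cage, so mice of a group can share one and p-values measure only the spread between these mice. The study's methods note lower body weight and relative liver weight with PT at this dose and not with MT. The other groups, used here only as levels or in a test of dose pairs, were the control diet, the lower and the higher PT diets (20 and 80 ppm) and MT diets of 10, 25 or 100 ppm. Another OPP entered only an alternative model of all 84 mice.

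Both pesticides are inactive as cholinesterase inhibitors until cytochromes P450, mostly in the liver, turn them into oxons, which phosphorylate and block acetylcholinesterase. PT is a diethyl phosphorothioate with a nitrophenyl leaving group, and MT is a dimethyl phosphorodithioate. The liver also removes oxons, with carboxylesterases and butyrylcholinesterase as binding sites and paraoxonase as a hydrolase, so it holds both the enzymes that activate these compounds and those that clear them.

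Expression was measured with TempO-Seq, in which pairs of detector oligos are ligated on their target transcript, amplified and sequenced. Total counts per mouse were 10166346 to 13228098 at PT 40 ppm and 6950381 to 13479545 at MT 50 ppm, and levels are given as CPM, counts scaled to a common library total. A level of 3 counts, taken as the floor, equals 0.223 to 0.432 CPM. The summed level of 7 hepatocyte markers was 28306 to 38795 CPM over the 14 mice. A few mice stood apart in the acute phase genes within block 3, whose values are given below with and without that block. Saa1, serum amyloid A1, was at 19537 and 36144 CPM in PT replicates 3 and 4 and at 108 CPM in MT replicate 4, and the 10 most abundant genes took 27.1% of the counts of PT replicate 4.

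No gene passed the test between PT 40 ppm and MT 50 ppm. Of the 10450 genes with a median count above 8, 0 (0%) had an adjusted p under 0.05 by edgeR's quasi-likelihood test with block as a covariate, and the lowest adjusted p was 0.191. An unadjusted p under 0.05 was found for 854 genes (8.17%), 437 of them with higher expression at PT (4.18%) and 417 with lower expression (3.99%). DESeq2, run as an alternative, called 19 genes, and limma called 0. The absence of calls came with narrow intervals for most genes. The 95% interval of the difference lay within 2-fold either way for 9991 genes (95.6%) and within 1.5-fold for 8051, and among the 5950 genes with a median count of 100 or more it lay within 2-fold for 5895. The median absolute log2 fold change was 0.09 and the 5th and 95th percentiles were -0.34 and 0.27. The CPM of the groups did not overlap for 11 genes (0.105%), 5 with all PT mice above all MT mice (0.0478%) and 6 with all PT mice below (0.0574%).

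Cyp2b10, the cytochrome P450 that the constitutive androstane receptor (CAR) induces, was below the count filter in these mice and was the one gene called when the filter was left out. It lies on chromosome 7 (25597045 to 25626049, GRCm39). Its counts were 0, 1, 0, 1, 0, 0 and 1 in PT replicates 1 to 7 and 0, 5, 10, 1, 14, 32 and 32 in MT replicates 1 to 7. No PT mouse had more than 1 count and 5 of 7 MT mice had 5 or more, while 2 MT mice lay within the PT range. The MT group held 94 counts and the PT group 3, a depth-adjusted ratio of MT to PT of 34.7 (95% interval 11.5 to 171, counting error only). The exact two-sided permutation test over the 14 mice gave p = 0.0064, and p = 0.011 when permuted within blocks, where the smallest possible values are 0.00058 and 0.0028. Without the filter, edgeR gave an adjusted p of 0.0216 over all genes. The CPM of each mouse matched a whole Cyp2b10 count, so no read split with another gene was seen. Whether reads of the related Cyp2b9 and Cyp2b13 were assigned to it was not examined.

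The other diets place these counts. Control mice had 0 to 2 Cyp2b10 counts and PT 20 ppm mice 0 or 1. MT gave 0 or 1 at 10 ppm, 0 to 7 at 25 ppm and 6 to 294 at 100 ppm. At PT 80 ppm both mice of block 1 had 173 and 53 counts and the other 5 mice 0 to 8, so the gene was not confined to MT in the series. These levels were not tested against one another.

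**Figure D1:**
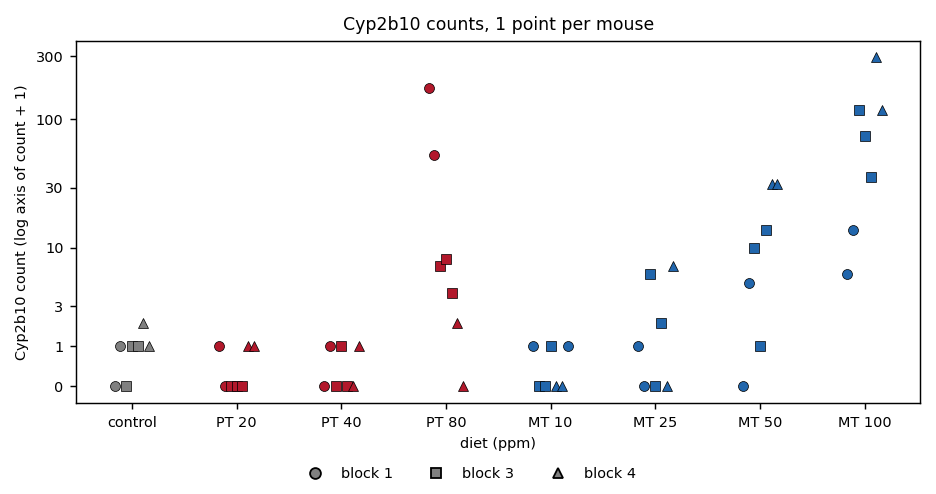
Cyp2b10 counts (y axis, log scale of the count plus 1) in each of the 7 mice of the control, PT and MT diets (x axis, ppm), with the symbol giving the block. The 7 PT 40 ppm mice sit at 0 or 1 and the MT 50 ppm mice between 0 and 32.

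The 250 bases before the start of Cyp2b10 and of Cyp1a2, the other drug-metabolizing P450 near the top of the ranking, are shown because Cyp2b10 was called without the filter and Cyp1a2 by DESeq2. The sequences are RefSeq promoters of build GRCm38.p6, at chr7:25897408-25897657 on the plus strand and chr9:57683656-57683905 on the minus strand. Capitals mark matches on either strand to the core of the xenobiotic response element (GCGTG), the nuclear receptor half-site (AGGTCA) and the TATA box (TATAAA).
Cyp2b10: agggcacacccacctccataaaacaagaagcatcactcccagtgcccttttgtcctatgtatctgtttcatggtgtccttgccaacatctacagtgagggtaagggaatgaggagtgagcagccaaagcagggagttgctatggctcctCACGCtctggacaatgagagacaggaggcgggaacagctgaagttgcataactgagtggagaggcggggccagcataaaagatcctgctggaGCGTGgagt
Cyp1a2: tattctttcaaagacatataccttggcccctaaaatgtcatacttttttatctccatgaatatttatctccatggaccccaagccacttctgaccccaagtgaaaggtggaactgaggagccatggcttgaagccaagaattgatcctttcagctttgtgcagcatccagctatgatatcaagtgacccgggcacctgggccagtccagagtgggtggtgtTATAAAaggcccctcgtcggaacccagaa
Cyp2b10 held GCGTG at -101 to -97 on the minus strand and at -9 to -5 on the plus strand, and Cyp1a2 held TATAAA at -29 to -24. Neither window held AGGTCA, and sequence further upstream was not examined, so this absence covers these 250 bases only. Of 32851 promoters of this length, 28.2% held GCGTG and 12.4% TATAAA, and 4607 held AGGTCA.

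Among genes with higher expression at PT, Cyp1a2, the hepatic P450 of arylamine and caffeine metabolism, followed Rpl41 and Mal2 in the ranking by p once predicted genes and pseudogenes were set aside. Its CPM was 81.5, 111 and 128 (lowest, median, highest) at PT and 55.1, 76.03 and 98.1 at MT. The ranges overlapped through 2 PT mice of block 4 and MT mice of blocks 1 and 4, and the difference within block 4 was 0.02 against 0.59 in block 1 and 0.85 in block 3 (difference of mean log2(CPM + 1), used for all block values below). The log2 fold change of PT over MT was 0.58 ± 0.12 (SE, n = 7 and 7) with an edgeR adjusted p of 0.305, and DESeq2 gave an adjusted p of 0.0031. The gene lies on chromosome 9 (57584196 to 57590986, GRCm39). Controls had a median of 57.3 CPM, and PT 20, PT 80, MT 25 and MT 100 ppm had medians of 69.1, 96.8, 66.2 and 63.6 CPM.

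Mal2, a membrane protein of transcytosis in polarized hepatocytes, and Kbtbd12, a kelch-repeat protein, showed no overlap between the groups. Mal2 was at 1.59, 2.08 and 2.75 CPM at PT and 0.863, 1.18 and 1.54 CPM at MT (log2 fold change 0.83 ± 0.17). Kbtbd12 was at 1.63, 2.31 and 3.26 CPM at PT and 0.819, 1.18 and 1.54 CPM at MT (1.00 ± 0.23). Both were higher in every PT mouse than in every MT mouse, at low levels above the 3-count floor. Mal2 had 21 to 28 counts at PT and 6 to 19 at MT, and Kbtbd12 20 to 43 and 7 to 19. Rpl41, a ribosomal protein, also did not overlap, with 0.955 to 1.89 CPM at PT and 0.637 to 0.925 CPM at MT. Its counts before scaling met, with 12 to 25 at PT and 5 to 12 at MT.

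The other genes with the lowest p on this side had small log2 fold changes: Rack1, a ribosomal scaffold protein, 0.37, Rpl11 0.31, Clpp, a mitochondrial protease, 0.33, Mrpl52, a mitochondrial ribosomal protein, 0.44, Nme3 0.24, Fuom 0.29, Grcc10 0.23 and Tmem30b 0.93. The edgeR adjusted p of these genes, with Cyp1a2, Mal2, Kbtbd12 and Rpl41, was 0.305 to 0.471. Several encode parts of cytosolic or mitochondrial ribosomes, whose lists are described below. The lowest adjusted p of all, 0.191, belonged to the processed pseudogenes Gm15531 and Gm17241. Their counts were equal in all 84 mice, so the authors' counting cannot have told them apart. Rpl11 kept almost the same proportion to another processed pseudogene, Gm48909, in both groups. Rpl11 was at 27.8, 31.2 and 32.7 CPM at PT and 18.6, 26.1 and 28.1 CPM at MT. Gm48909 was at 209, 234 and 246 CPM at PT and 139.8, 196 and 211 CPM at MT. Rpl11 and Gm48909 are thus not separate signals.

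On the other side, H2-K2 had the lowest p, followed by Mtch2 and H2-Q7. H2-K2, which the annotation gives as a transcribed pseudogene of the class I histocompatibility region, was at 288, 326 and 350 CPM at PT and 375, 412 and 478 CPM at MT, with no overlap and a log2 fold change of -0.36 ± 0.065. H2-Q7, which encodes a nonclassical class I molecule, was at 227, 257 and 289 CPM at PT and 293, 341 and 393 CPM at MT, again with no overlap (-0.36 ± 0.076). These differences were small and of like size in all 3 blocks (H2-K2 -0.30, -0.45 and -0.37). The edgeR adjusted p was 0.206 and 0.305, and DESeq2 gave 0.00012 and 0.0031. Class I genes are near-identical copies, and the split of reads between them is uncertain.

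Mtch2, an outer mitochondrial membrane insertase, and Mcm6, a subunit of the replicative helicase, also separated the groups fully in CPM. Mtch2 was at 0.423, 1.40 and 1.80 CPM at PT and 2.03, 3.15 and 4.81 CPM at MT (-1.31 ± 0.27). Mcm6 was at 7.18, 9.30 and 10.5 CPM at PT and 10.7, 14.96 and 18.8 CPM at MT (-0.63 ± 0.13). For Mcm6 the highest PT mouse and the lowest MT mouse were nearly level. Counts before scaling did not separate the groups. Mtch2 had 6 to 22 at PT and 22 to 43 at MT, and Mcm6 had 73 to 139 and 100 to 254. Immunoglobulin genes, sparse in these libraries, were also on this side. Ighg2b was at 0 to 1.38 CPM at PT and 0.214 to 4.73 CPM at MT (-2.42 ± 0.62) and Igkv1-133 had a log2 fold change of -1.67 ± 0.38.

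Elovl5, an elongase of polyunsaturated fatty acids, was at 171, 211 and 261 CPM at PT and 196, 329 and 374 CPM at MT, with a log2 fold change of -0.45 ± 0.11. The difference lay in blocks 3 and 4 (-0.71 and -0.66), while block 1 gave 0.02. It passed the edgeR test when block 1 or PT replicate 1 was left out (adjusted p 0.0449 and 0.028) and not with all mice (0.464). Abcg2, an efflux transporter of the canalicular membrane, had a log2 fold change of -0.42, Ctsb, a lysosomal protease, -0.33, Tfpi2, a serine protease inhibitor, -0.29, Tbxas1, thromboxane synthase, -0.66 and Fbxo33 -0.65, with adjusted p of 0.373 to 0.471 by edgeR.

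**Figure D2:**
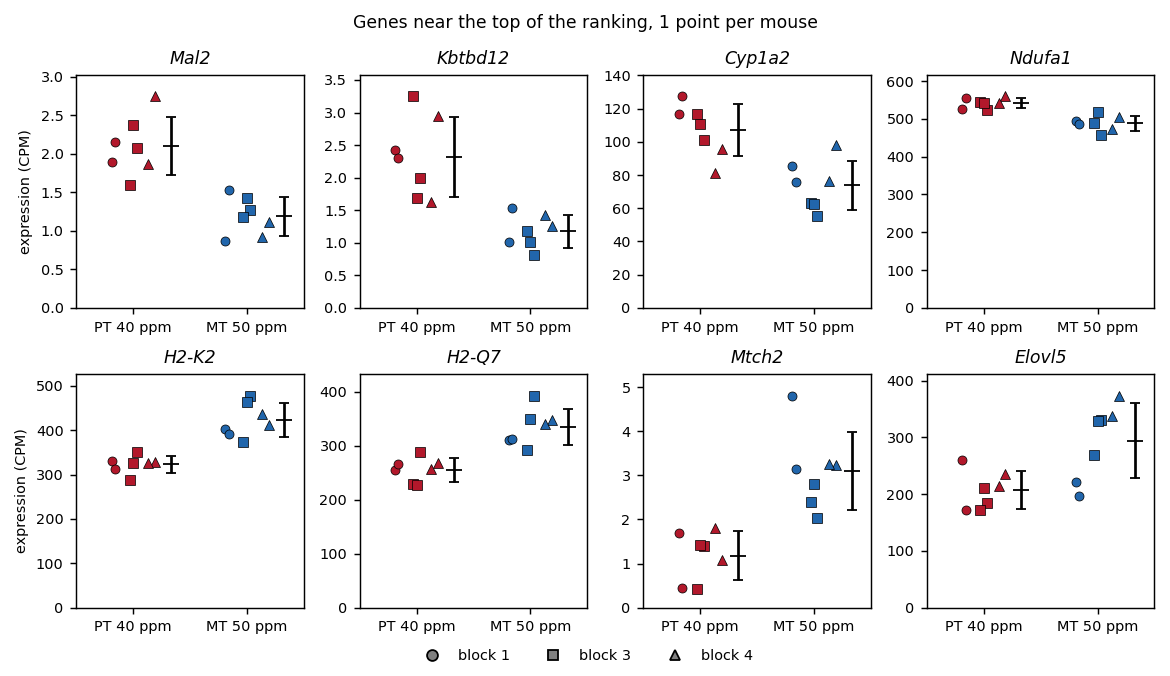
Expression (y axis, CPM from 0) of 8 genes near the top of the ranking in each PT 40 ppm and MT 50 ppm mouse, with symbols for blocks 1, 3 and 4 and bars for the mean ± SD of 7 mice. The groups do not overlap for Mal2, Kbtbd12, Ndufa1, H2-K2, H2-Q7 and Mtch2 and overlap for Cyp1a2 and Elovl5.

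Genes chosen after their values were seen complete the non-overlapping set. Ndufa1, a subunit of respiratory complex I, was at 523 to 561 CPM at PT and 456 to 517 CPM at MT, a log2 fold change of only 0.18 ± 0.056. Glcci1 (0.67 ± 0.18) lay on the same side, and Helz (-0.48 ± 0.13) and Aldh1b1, a mitochondrial aldehyde dehydrogenase (-0.35 ± 0.093), on the other. The 19 genes that DESeq2 called were H2-K2, H2-Q7, Cyp1a2, Elovl5, Abcg2, Ctsb, Tfpi2, Grcc10, Rack1, Oat and Aldh1b1, and, seen only after the fit, Tkfc, Ddb1, Akr1c13, Gm15531, Gm17241, Gm49369, Gm12013 and Gm48909. Their absolute log2 fold changes ran from 0.23 to 0.58. Gm15531 and Gm17241 are a single signal among these calls, and Gm48909 moved with Rpl11 as given above.

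The targets and hydrolases of the oxons gave no call. Ache, the gene of acetylcholinesterase itself, was below the filter, with 30 counts over the PT mice and 31 over the MT mice, and the exact permutation p was 0.63. Bche, butyrylcholinesterase, was at 118, 172 and 194 CPM at PT and 139, 195 and 224 CPM at MT (log2 fold change -0.15 ± 0.084, 95% interval -0.32 to 0.03). Pon1, paraoxonase, was at 130, 211 and 233 CPM against 133, 184 and 272 CPM (0.09 ± 0.12, -0.17 to 0.35). For both genes the groups overlapped. Ces1c, the secreted plasma carboxylesterase, had 0.15 (-0.06 to 0.36) and Ces2a 0.14 (-0.13 to 0.41). Of the 26 list members tested, 1 had p under 0.05 on each side, Ces1b at 0.63 and Ces2e at -0.30, and the list median was 0.04 beside -0.0011 over all genes. Without block 3, 7 members were higher and 0 lower, and leaving out single mice gave 0 to 5 higher.

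P450 genes other than Cyp2b10 also gave no call. Cyp2c29 was at 995, 2001 and 2692 CPM at PT and 1798, 2226 and 3132 CPM at MT (-0.27 ± 0.17). Cyp3a11, the main pregnane X receptor target, was at 24.9 to 124 CPM at PT and 46.9 to 127 CPM at MT (-0.29 ± 0.24, interval -0.79 to 0.22). The block differences of Cyp3a11 were -0.12, -1.04 and 0.41, so no direction held over blocks. In the CAR and PXR list 1 of 24 tested members had p under 0.05 on each side: Nr1i3, which encodes CAR, at 0.40 and Cyp2c55 at -0.83. In the list of other P450 and flavin monooxygenase genes, 4 of 31 had p under 0.05 with higher expression at PT, Cyp1a2, Cyp39a1 (0.57), Cyp2e1 (0.28) and Cyp4f13 (0.22), and 1 with lower, Cyp2r1 (-0.30). Leaving out single mice gave 1 to 7 higher, 1 without MT replicate 3, and leaving out block 3 gave 10. The CAR and PXR list ran from 0 to 6 higher and 1 to 4 lower over single mice.

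Fatty acid hydroxylases of the PPARalpha list were sparse at these doses. Cyp4a10 was at 2.20, 3.26 and 9.89 CPM at PT and 0.613, 1.47 and 11.1 CPM at MT (0.56 ± 0.54). Cyp4a14, below the filter, had 27 counts over the PT mice, 13 of them in replicate 4, and 6 over the MT mice, with an exact permutation p of 0.064. The ranges overlapped for both. Of 41 members of the PPARalpha and fatty acid oxidation list, 2 had p under 0.05, both with higher expression at PT, Eci2, an enoyl-CoA isomerase, at 0.45 and Acadm, an acyl-CoA dehydrogenase, at 0.23, and without block 3 8 did.

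Lipogenic genes leaned to lower expression at PT in blocks 3 and 4. Of 23 tested, 8 had p under 0.05 with lower expression at PT and 0 with higher, where 3.99% and 4.18% of all genes did, 20 had a negative fold change, and the median log2 fold change was -0.32. No member passed the adjusted test. Scd1, stearoyl-CoA desaturase, was at 74.5, 203 and 402 CPM at PT and 178, 417 and 501 CPM at MT (-0.88), and Pnpla3, a lipid droplet acylhydrolase, at 4.83, 12.98 and 25.6 CPM against 5.09, 27.3 and 54.2 CPM (-1.04). The direction differed by block. The list median was 0.51 in block 1, -0.83 in block 3 and -0.43 in block 4: both block 1 PT mice had more Scd1 (402 and 344 CPM) than both block 1 MT mice (252 and 178 CPM), and in blocks 3 and 4 every PT mouse had less than every MT mouse. Without block 1, 18 members had p under 0.05, and without block 3, 2 lower and 2 higher did. Leaving out single mice gave 4 to 13 lower members, 4 without PT replicate 3 and 13 without MT replicate 2.

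The cell cycle list had the same median, -0.32, with 8 of 20 members at p under 0.05 and lower at PT and 0 higher, where 3.99% and 4.18% of all genes were. The 8 members were Mcm6, Aurkb (-1.02) and Plk1, mitotic kinases, Ccnd1 (-0.87), Ccna2 and Ccne2, cyclins, Top2a and Rrm1. The block medians were 0.05, -0.23 and -0.37. When single mice were left out, 4 to 8 members had p under 0.05, fewest without MT replicate 7, and without block 3 or block 4 4 did.

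Acute phase genes varied widely among mice of the same group. Saa1 was at 199, 820 and 36144 CPM at PT and 108, 12267 and 15438 CPM at MT, with block differences of -5.60, 1.81 and -2.22 and a log2 fold change of -1.49 ± 1.08. Orm2, an acute phase glycoprotein, was at 5.08, 13.4 and 860 CPM and 4.81, 155 and 659 CPM, with block differences of -4.55, 1.67 and -3.63. In blocks 1 and 4 every PT mouse lay below every MT mouse for both genes, and in block 3 the order was mixed. The list of 30 had 1 member at p under 0.05, Saa4 (-1.20), and a median of -0.07, with block medians of -0.77, 0.39 and -0.29. Without block 3, 22 members had p under 0.05 with lower expression at PT and 8 passed the adjusted test, among 41 genes called in all. Saa1 and Saa2 are near-identical copies.

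**Figure D3:**
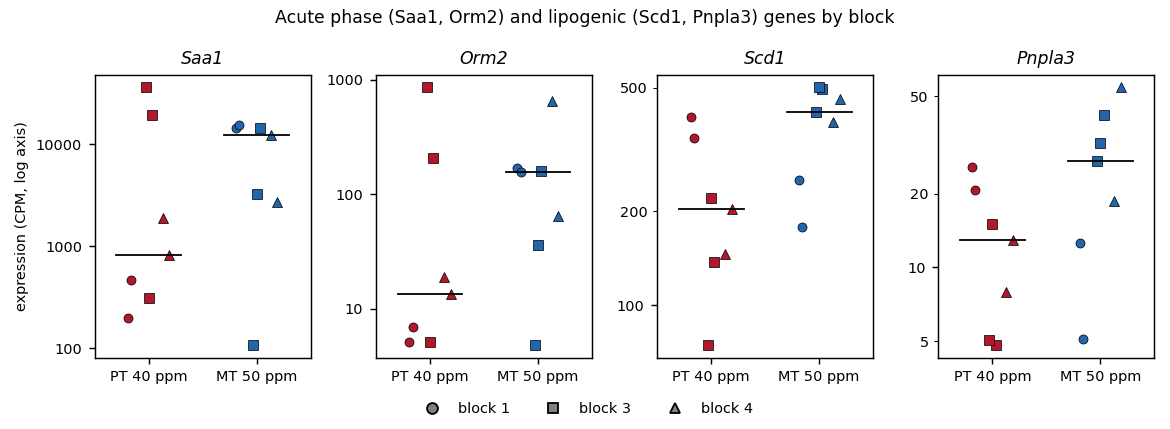
Expression (y axis, CPM, log scale) of the acute phase genes Saa1 and Orm2 and the lipogenic genes Scd1 and Pnpla3 in each mouse, with symbols for blocks and lines at the median of 7 mice. For Scd1 the block 1 PT mice lie above the block 1 MT mice, and in the other blocks every PT mouse lies below every MT mouse.

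Ribosomal and respiratory chain genes leaned the other way, by small amounts. Of 33 cytosolic ribosomal protein genes, 13 had p under 0.05 with higher expression at PT and 0 with lower, and the median log2 fold change was 0.12. Of 56 respiratory chain subunits, 12 had p under 0.05, all higher, Uqcrq of complex III first (0.20 ± 0.061), and the median was 0.08. Over all genes, 4.18% had p under 0.05 with higher expression at PT and 3.99% with lower. Rpl11 moved with the pseudogene Gm48909, as given above, and the part of shared reads in the other ribosomal genes was not tested. Scaling by library size alone, which moved the median of all genes to -0.03, left 6 higher and 1 lower ribosomal genes and 6 higher respiratory genes. Leaving out single mice gave 9 to 18 ribosomal and 7 to 17 respiratory genes on the higher side, and leaving out block 4 gave 4 of each.

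Most of the remaining lists had few members at p under 0.05. Phase II conjugation had 2 of 41 members at p under 0.05 (Gstt1 0.19), glucocorticoid and metallothionein genes 2 of 16 (Klf9 0.27), growth hormone genes 1 of 24 (Cyp17a1 0.80), and the unfolded protein and heat shock list 1 of 30 (Xbp1 0.26), all higher at PT. Nrf2 targets had 2 of 27 on each side (Nfe2l2 -0.39), heme genes 1 higher and 2 lower of 18 (Hmox1 -0.74) and pericentral genes 2 and 2 of 14. Lower at PT were 1 of 33 gluconeogenesis, urea cycle and amino acid genes (Oat -0.35), 1 of 12 periportal genes (Aldh1b1), 2 of 36 interferon-stimulated genes (Tap1 -0.60) and 2 of 17 p53 and growth arrest genes (Ccng1 -0.16), with Cdkn1a at -0.25 ± 0.44. These small counts moved with the mice included: phase II ran from 0 to 7 higher over single mice and had 5 higher and 3 lower without block 1, and interferon-stimulated genes had 8 lower without block 3. Bile acid (22 tested, Cyp7b1 0.39), clock (17, Clock -0.20) and immediate early genes (12, Dusp6 -0.28) had 0.

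**Figure D4:**
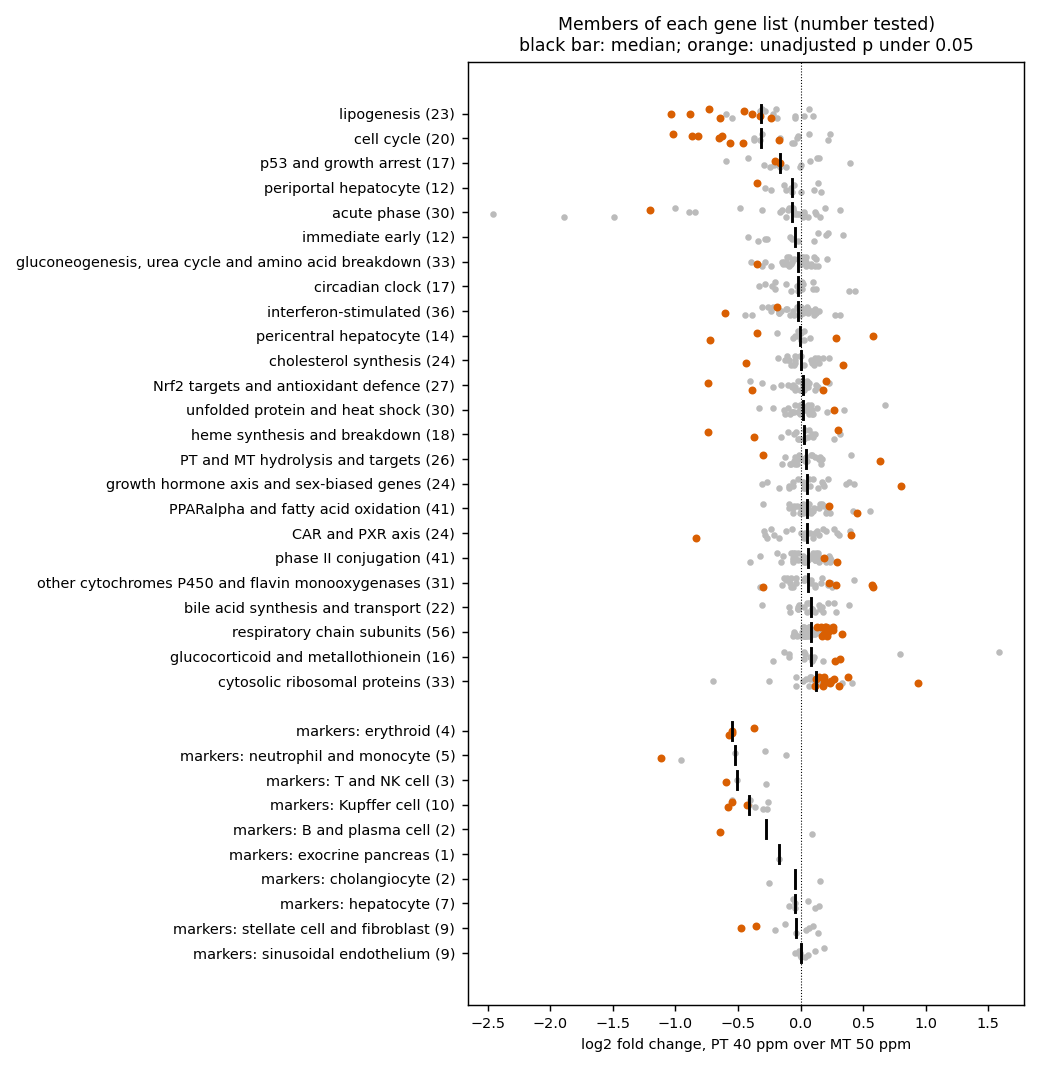
Log2 fold change of PT 40 ppm over MT 50 ppm (x axis) of each tested member of 24 gene lists and 10 marker lists (rows, number tested in brackets), with orange points for unadjusted p under 0.05 and a bar at the list median. Lipogenesis and cell cycle lie lowest among the gene lists at -0.32, and erythroid and Kupffer cell markers lie at -0.55 and -0.41.

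Markers of blood and immune cells leaned to lower expression at PT beside these lists, by an extent that varied with the blocks included. Among all genes 3.99% had p under 0.05 with lower expression at PT. All 10 tested Kupffer cell markers had a negative fold change, 3 with p under 0.05, with a median of -0.41, and their summed level was 155 to 294 CPM at PT and 159 to 471 CPM at MT. Adgre1, which encodes the macrophage protein F4/80, had -0.55 and Vsig4 -0.58. All 4 erythroid markers were lower with p under 0.05, with a median of -0.55 and sums of 29.8 to 54.1 and 33.9 to 89.6 CPM, and block medians of 0.04, -0.43 and -0.93. Hba-a1 and Hba-a2 had almost equal levels (means of 18.98 and 18.60 CPM at MT), so the 4 are not separate measurements. Without PT replicate 7, and without block 4, 0 of the 4 had p under 0.05. Neutrophil and monocyte markers (5 tested, 1 lower, S100a9 -1.12, sums 11.7 to 21.5 and 14.8 to 33.9 CPM), T and NK cell markers (3 tested, 1 lower, Nkg7 -0.59, sums 4.66 to 6.98 and 5.45 to 14.02 CPM) and B and plasma cell markers (2 tested, 1 lower, Jchain -0.64, sums 3.501 to 5.30 and 4.52 to 8.61 CPM) lay the same way. Sinusoidal endothelium (9 tested) had 0 members at p under 0.05 and a median of 0.0041, stellate cell and fibroblast markers 2 of 9 lower, hepatocyte, cholangiocyte (2) and pancreas (1) markers 0, and adipocyte markers were at 0 to 0.335 CPM in sum. No marker passed the adjusted test. Fewer cells of a type and less RNA per cell cannot be told apart in whole liver, and the part of these markers in the class I, immunoglobulin and cell cycle values was not tested. Leaving out MT replicate 4, the MT mouse with the lowest Kupffer sum, gave 8 Kupffer markers at p under 0.05, and leaving out MT replicate 3 gave 1. Without block 1, 3 or 4, the lower Kupffer markers at p under 0.05 were 1, 9 and 2. Neutrophil and monocyte markers had 0, 3 and 0, and T and NK cell and B and plasma cell markers 1, 0 and 0 each. Within block 3 the Kupffer sums were 155 to 294 CPM at PT and 159 to 292 CPM at MT.

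The comparison was set against the lower and upper pairs of diets with the same ratio of intakes, PT 20 with MT 25 ppm and PT 80 with MT 100 ppm, which share no mice with it. In 1 edgeR model of these 42 mice, which also holds the 14 mice above, 0 of 10408 genes passed at 40 and 50 ppm (0%, with 528 or 5.07% at p under 0.05) and 0 at 20 and 25 ppm (0%, with 591 or 5.68%). At 80 and 100 ppm 1572 genes passed (15.1%), 884 higher at PT (8.49%) and 688 lower (6.61%), and 3162 had p under 0.05 (30.4%). The test of the difference between the pairs found 0 genes between 40/50 and 20/25 ppm (302 or 2.9% at p under 0.05, and 0 by DESeq2). Between 40/50 and 80/100 ppm it found 335 genes (3.22%), 158 with a higher PT over MT value at 40/50 (1.52%) and 177 with a lower one (1.7%), and 2103 had p under 0.05 (20.2%). Of these 335, 327 passed at 80 and 100 ppm. The median absolute log2 fold change of the 335 was 0.11 at 40/50 and 0.64 at 80/100 ppm. The sign was the same at both pairs for 85 of them and opposite for 250. RNA of 2 of the MT 100 ppm mice was isolated at the U.S. EPA, and without those mice the count was 284. The count ran from 128 to 640 when single mice were left out, lowest without MT 100 ppm replicate 1 and highest without PT 80 ppm replicate 6.

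Cyp4a10 showed the widest gap in this test among the genes named here. Its log2 fold change of PT over MT was 0.48 at 40/50 and 6.65 at 80/100 ppm, a difference of -6.17 ± 0.89 (adjusted p 0.00026), with medians of 3.26 CPM at PT 40, 214 at PT 80, 1.47 at MT 50 and 1.91 at MT 100 ppm. Bche differed by -0.77 ± 0.16 (adjusted p 0.0075): its medians were 172 and 327 CPM at PT 40 and PT 80 and 195 and 194 CPM at MT 50 and MT 100 ppm. Fmo1, a flavin monooxygenase that can oxidize thioether pesticides, differed by -1.73 ± 0.30. Its medians were 85.7 and 212 CPM at PT and 90.4 and 98.6 CPM at MT. For all of these the PT 80 ppm diet stood apart and the middle pair lay close together.

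Of 24 CAR and PXR genes tested, 8 had a lower and 1 a higher PT over MT value at 40/50 than at 80/100 ppm, where 1.7% and 1.52% of all genes did. Por, the electron donor of all microsomal P450s, went from 0.23 to 2.31 (difference -2.08 ± 0.44) and Cyp2c39 from 0.24 to 2.72, while Cyp2c55 went from -0.83 to -3.14 (2.30 ± 0.42). Of 22 bile acid genes, 4 were lower at 40/50, among them Cyp7a1, the rate-limiting enzyme of bile acid synthesis, from -0.06 to 2.28, and Slco1a4, an organic anion importer, from 0.14 to 2.21. Of 31 other P450 and flavin monooxygenase genes, 4 were higher and 2 lower, Cyp2e1 going from 0.28 to 0.98. The calls of Cyp7a1 and Cyp2e1 were lost without any one of 4 and 10 single mice, MT 100 ppm replicate 1 among them (adjusted p 0.0559 and 0.0800 by edgeR). Of 41 phase II genes 3 were higher and 1 lower, and Gstp1 and Gstp2, near-identical copies, went from 0.24 and 0.25 to -1.37 each. Fkbp5, a glucocorticoid target, went from 0.08 to 2.77.

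The lipogenesis list had 0 members in the difference test. Of its 23 members 11 passed with lower expression at PT in the 80/100 pair, where 6.61% of all genes did. The list median was -0.62 in that pair and -0.32 at 20/25 ppm. Mal2 and Kbtbd12, without overlap at 40/50 ppm, lay the other way at 80/100 ppm (-1.19 and -1.29 against 0.83 and 1.02 in the 42-mouse model), with differences of 2.01 ± 0.30 and 2.31 ± 0.43. Their MT medians did not fall with dose. Mal2 was at 2.01, 1.91, 1.18 and 1.87 CPM at MT 10, 25, 50 and 100 ppm. Kbtbd12 was at 1.64, 1.52, 1.18 and 1.44 CPM on these diets. From PT 40 to PT 80 ppm the medians went from 2.08 to 0.952 CPM for Mal2 and from 2.31 to 0.528 CPM for Kbtbd12. Control medians were 1.41 and 1.56 CPM. Ighg2b reversed as well, from -2.52 to 2.13 (-4.65 ± 1.18). Several other top-ranked genes kept their direction. H2-K2, H2-Q7, Elovl5, Abcg2 and Tfpi2 were at -0.91, -0.46, -1.20, -0.63 and -1.14 at 80/100 ppm. They passed there by edgeR (adjusted p 1.0e-06 to 0.033). Cyp1a2 and Rpl41 stayed higher at PT, at 0.15 and 0.30, and did not pass. Igkv1-133, Tmem30b, Mrpl52 and Rpl11 changed sign, at 1.36, -0.45, -0.18 and -0.086, and did not pass.

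**Figure D5:**
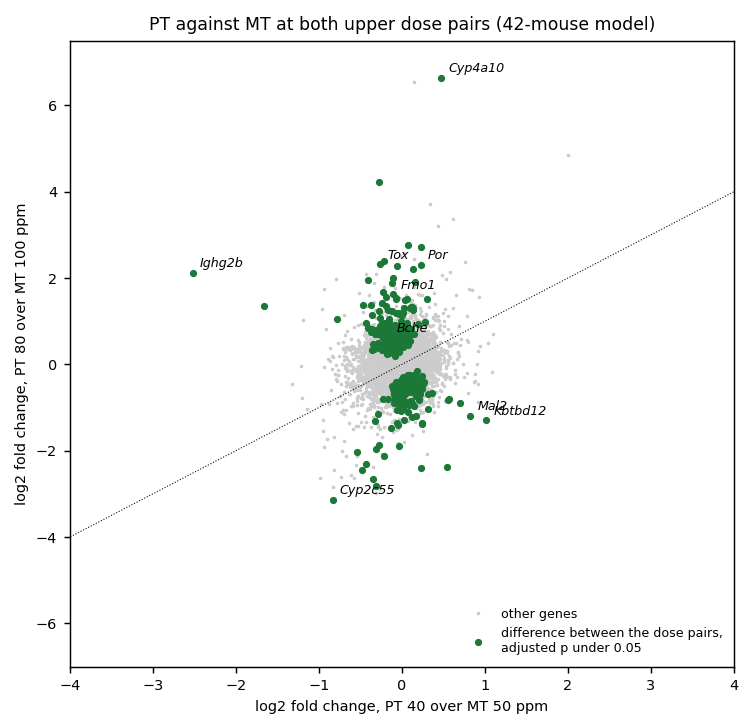
Log2 fold change of PT over MT at 40 and 50 ppm (x axis) against that at 80 and 100 ppm (y axis) for 10356 genes in the 42-mouse model, with the diagonal dotted and the genes whose difference between the pairs passed in green. Most green genes lie near 0 on the x axis and away from 0 on the y axis.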

How the data were processed

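Liver RNA was measured by TempO-Seq. Per the labels and the study's methods, the authors trimmed and aligned reads to mm39 with STAR in Partek Flow and deposited estimated counts per gene, without normalization. In the 14 mice 18.7% of the estimated counts were not whole, and all were rounded. A second table of adjusted log2 values was not used. Groups came from the labels, and replicate numbers only follow the order of the samples. Gene names are from GENCODE on GRCm39 (17660 of 17695 identifiers). The test was edgeR 4.0.16 (quasi-likelihood, TMM, block as covariate, R 4.3.3) over the 14 mice for genes with a median count above 8, with Benjamini-Hochberg adjustment and a threshold of 0.05. Dose pairs were compared in 1 model of 42 mice with block and isolator. DESeq2 1.42.0 and limma 3.58.1 (log2(CPM + 1)) were alternatives, beside other scalings, filters and left-out mice or blocks. SE values are from the fitted model. Exact permutation tests, two-sided, were run for 3 genes under the filter. The scripts were tested on simulated data. Genes named by rule are the 12 with the lowest p on each side (predicted genes left out) and preset enzymes and markers. The member with the lowest p of each list was also named by rule. Genes without overlap, called by DESeq2 or ranked for the difference between dose pairs were added. Further list members, such as Scd1, Pnpla3, Aurkb, Ccnd1, Ces1b, Nr1i3, Cyp39a1 and Acadm, were named outside these rules. The members and lists were chosen with earlier results of these data known. Reads are PCR products without molecular identifiers, so the interval of the Cyp2b10 count ratio and the 3-count floor cover counting error only, while intervals of fold changes come from the edgeR fit and include the spread between mice. Some list genes, such as Ces2c, Gstm1 and Trp53, were not analysed here. The member values of the cholesterol synthesis list are not reported here.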

Additional observations from a re-analysis of the deposited data

Results flagged for a closer look

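In 12 of 188 checks of a gene in a group of 7 mice (6.38%), 1 mouse lay apart from the other 6 by Dixon's criterion, which chance alone meets in about 1 of 20 groups. These were Rpl11 in MT replicate 3 (18.6 CPM, low, group median 26.1), Cyp4a14 in PT replicate 4 (0.985 CPM, high, group median 0.163), Orm2 in PT replicate 4 (859.8 CPM, high, group median 13.4), Orm2 in MT replicate 7 (659 CPM, high, group median 155), Akr1c13 in MT replicate 4 (162 CPM, high, group median 94), Gm48909 in MT replicate 3 (139.8 CPM, low, group median 196). The others were Mia3 in MT replicate 1 (127 CPM, low, group median 159), Prrc2c in PT replicate 4 (65.1 CPM, low, group median 106), Prrc2c in MT replicate 6 (133 CPM, high, group median 111), Ces1b in MT replicate 4 (9.51 CPM, high, group median 4.03), Nr1i3 in MT replicate 4 (419 CPM, high, group median 253) and Nkg7 in MT replicate 6 (3.12 CPM, high, group median 1.84). Rpl11 and Gm48909 in MT replicate 3 are not separate observations, since their levels kept almost the same proportion.

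For part of the genes named by rule or in the text, the log2 fold change of PT over MT differed between the 40/50 and 80/100 ppm pairs. The test was the edgeR test of the difference, which others, such as Cyp1a2, H2-K2, H2-Q7, Mtch2 and Mcm6, did not pass. The 40/50 value was higher by the log2 amount in brackets for Mal2 (2.01), Kbtbd12 (2.31), Tfpi2 (0.85), Ndufa1 (0.34), Cyp2c55 (2.30), Polb (0.78), Tubg1 (0.43), Gstp1 (1.61), Shcbp1 (1.91), Slc25a17 (0.70) and Rnf125 (1.32). It was lower for Igkv1-133 (-3.02), Ighg2b (-4.65), Oat (-0.70), Cyp2e1 (-0.70), Abca5 (-1.10), Bche (-0.77), Prrc2c (-0.63), Tox (-2.58), Dennd5b (-0.76), Cyp4a10 (-6.17), Por (-2.08), Cyp2c39 (-2.48), Mia3 (-0.69), Chd9 (-0.65), Slco1a4 (-2.07), Fmo1 (-1.73), Fkbp5 (-2.69) and Cyp7a1 (-2.34). Gstp1 shares reads with its copy Gstp2, and genes ranked for this difference, among them Slc25a17, Polb, Tox and Chd9, were named because of it.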

How the results depend on the processing

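No paired analysis was possible because the labels give no replicate numbers. The count of genes called between PT 40 ppm and MT 50 ppm was 0 under the other scalings, limma, the filter over 84 mice, no block covariate, the model of 84 mice and without block 4. It was 19 with DESeq2, 1 with no filter on low counts (Cyp2b10), 1 without block 1, 41 without block 3 (8 higher, 33 lower) and 0 to 2 when single mice were left out (1 without PT replicate 1, 2 without PT replicate 3). The cause was not tested. Among lists, DESeq2 called 2 lipogenic, 2 pericentral, 1 periportal, 1 other P450 and 1 gluconeogenesis, urea cycle and amino acid gene. Without block 3, 8 acute phase, 2 hydrolysis, 1 CAR and PXR, 1 other P450 and 1 cell cycle gene were called. With no filter 1 CAR and PXR gene was called, and without block 1 1 lipogenic gene, with 0 to 1 over single mice. The sign turned for values that did not pass: Pon1 without block 1 (-0.074), Cyp3a11 without block 3 (0.15), Saa1 with no block covariate (0.083) and without block 1 (0.23), Orm2 likewise (0.025 and 0.46) and without block 4 (0.46), Rnf125 (-0.12), Chd9 (0.076), Mia3 (0.020) and Fmo1 (0.073) without block 3, and Fmo1 without block 4 (0.027). Leaving out single mice put Rnf125 between -0.058 and 0.13.

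The count of genes whose PT over MT value differed between 40/50 and 80/100 ppm, 335, was 523 with DESeq2, 106 with no block covariate, 195 with no filter, and 128 to 640 when single mice of the 42 were left out, an alternative chosen after seeing the data. It moved by over 1.5 times without MT 100 ppm replicates 1, 2 and 5 (128, 196 and 176), MT 50 ppm replicates 3 and 6 (184 and 193) and PT 80 ppm replicates 1, 6 and 7 (223, 640 and 528). The count against 20/25 ppm was 0 under every alternative run. With no block covariate the differences of Rnf125, Tfpi2, Por, Slco1a4, Cyp2e1 and Cyp7a1 no longer passed. Genes of a few counts, such as Cyp2b10 and Ache, are limited by depth.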
